A study of Mus musculus with 2 samples.

Results

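The widest open regions of T-helper 1 cells that were wide in both replicates are described here. The assay was ATAC-seq, per the labels, a method that tags accessible DNA with a transposase carrying sequencing adapters. The cells were primary T-helper 1 cells from mice of the strain C57BL/6NJ, that is CD4 T cells driven by T-bet that secrete interferon-γ. There was 1 group with 2 biological replicates, each with its own biosample under a shared donor identifier, and the labels leave the sex not collected and the age unknown and do not say whether separate animals were used. A region belonged to the set when it lay on chromosomes 1 to 19 or X, was at least 2500 bp wide and overlapped a region of at least 2500 bp in the list of the other replicate. Of 98875 regions in replicate 1, 393 met the rule, and of 91488 regions in replicate 2, 392 did. They joined into 392 wide loci, of which 1 held 2 regions of replicate 1. The region names also hold a time of 96 hours and words (ASTARR, insert, masked, dedup, sorted) that are not explained. They do not settle if ordinary ATAC-seq fragments or inserts of a reporter assay were sequenced, which limits what a signal or a pileup stands for. The reads behind each list are not given, so depth is unknown. Paired values have replicate 1 first, an extreme is by the mean of both lists unless a list is named, all coordinates are mm10, and the genome sequence and gene starts are those of GRCm38 and GENCODE M21.

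On chromosomes 1 to 19 and X, 504 regions of replicate 1 (0.51%) and 508 of replicate 2 (0.556%) reached 2500 bp, so 111 and 116 wide regions were not members. Each of these overlapped a narrower region of the other list, with a median width of 2237 bp in the second list and 2112 bp in the first. In 51 and 69 of the cases the other list had split the region into 2 or more. The width and both lists were used to choose the loci, so neither the width nor the presence in both replicates is a finding, and signal and significance of the same regions are given as description without a test. Members just inside the minimum were the Inppl1 promoter (2546 and 2500 bp), an intergenic region at chr11:86580450-86583098 (2585 and 2501 bp) and the Ntn1 promoter (2508 and 2502 bp). Just outside it were regions at the pseudogene Gsdmcl-ps (2499 and 2770 bp), at the shared promoter region of Rdh10 and Rpl7 (2498 and 2517 bp) and at Usp19 (2498 and 2527 bp).

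A promoter in mammals is often a CpG island, a stretch of GC-rich DNA that has kept its CpG dinucleotides because it stays unmethylated in the germ line. CpG islands tend to be free of stable nucleosomes and to recruit proteins with a CXXC domain, and genes for developmental regulators and transcription factors often have long ones. Promoters without an island, common at tissue-specific genes, are usually opened by factors of that cell type.

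Stretches of 200 bp near the summits of 7 wide loci and 1 narrower promoter region show how differently the wide loci are built, with the 2 bases of each CpG in capitals. The first is from the widest locus, the second from the promoter locus of highest signal and the third from the promoter locus of lowest signal. The next is from the widest locus with no gene start. Zmiz1, Klf4 and Jun were chosen after their values were seen, as wide CpG island promoters, and Mdm4 is the narrower promoter region nearest the median width. All are the plus strand, read 5′ to 3′ from the RefSeq copy of GRCm38.
widest locus, chr9:3002888-3003087: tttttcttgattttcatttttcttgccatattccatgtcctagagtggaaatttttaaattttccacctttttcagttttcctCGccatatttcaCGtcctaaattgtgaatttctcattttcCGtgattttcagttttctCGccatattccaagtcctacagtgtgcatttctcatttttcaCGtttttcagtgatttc
highest-signal promoter locus, chr9:3032277-3032476: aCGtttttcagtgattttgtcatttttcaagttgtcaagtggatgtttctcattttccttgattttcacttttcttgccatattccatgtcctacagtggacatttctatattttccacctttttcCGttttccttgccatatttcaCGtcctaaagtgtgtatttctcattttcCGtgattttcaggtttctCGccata
lowest-signal promoter locus, chr11:52273401-52273600: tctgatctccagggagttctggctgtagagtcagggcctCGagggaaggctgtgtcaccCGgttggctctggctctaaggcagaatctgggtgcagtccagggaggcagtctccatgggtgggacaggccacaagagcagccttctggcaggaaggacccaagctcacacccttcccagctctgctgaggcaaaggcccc
widest locus without a start, chr4:3068149-3068348: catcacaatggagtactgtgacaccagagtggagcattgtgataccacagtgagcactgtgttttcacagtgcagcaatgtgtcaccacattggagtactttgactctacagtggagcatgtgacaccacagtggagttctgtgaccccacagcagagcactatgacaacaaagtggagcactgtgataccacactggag
Zmiz1, chr14:25459024-25459223: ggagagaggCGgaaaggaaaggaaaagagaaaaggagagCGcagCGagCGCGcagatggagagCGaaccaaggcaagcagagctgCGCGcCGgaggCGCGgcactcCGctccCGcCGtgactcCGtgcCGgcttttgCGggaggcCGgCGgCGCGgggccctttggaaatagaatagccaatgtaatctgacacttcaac
Klf4, chr4:55532860-55533059: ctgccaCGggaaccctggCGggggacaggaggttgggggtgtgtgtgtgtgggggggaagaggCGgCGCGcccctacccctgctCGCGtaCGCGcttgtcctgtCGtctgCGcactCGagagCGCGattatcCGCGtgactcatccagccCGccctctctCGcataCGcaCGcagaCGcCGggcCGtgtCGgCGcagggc
Jun, chr4:95052223-95052422: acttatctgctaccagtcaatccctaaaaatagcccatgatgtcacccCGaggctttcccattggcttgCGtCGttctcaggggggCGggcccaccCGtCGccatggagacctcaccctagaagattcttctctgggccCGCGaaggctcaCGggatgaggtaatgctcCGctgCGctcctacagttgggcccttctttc
Mdm4, narrower, chr1:133025417-133025616: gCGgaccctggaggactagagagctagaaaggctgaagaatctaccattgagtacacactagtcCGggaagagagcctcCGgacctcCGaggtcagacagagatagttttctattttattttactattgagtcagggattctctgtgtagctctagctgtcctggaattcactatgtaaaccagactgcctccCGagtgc

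In these stretches the CpG count was 21 at Zmiz1, 25 at Klf4 and 11 at Jun, against 5 at the narrower Mdm4 region. The widest locus had 5 CpGs and a GC content of 33.5%. The lowest-signal locus had 2 CpGs at a GC content of 61.5%, and the widest locus without a start had none.

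Most wide loci lay at gene starts. Of the 392, 331 (84.4%) came within 1 kb of an annotated transcript start, 15 others overlapped an exon, 16 only an intron and 30 no gene. Among 83754 narrower shared regions, that is regions found in both replicates and under 2500 bp in each, 21034 (25.1%) came within 1 kb of a start, 8.81% overlapped an exon, 37.4% only an intron and 28.6% no gene. A wide region covers more bases and so has more chance to come near a start, and that part of the difference was not tested. Of the wide promoter loci, 312 (94.3%) had a protein-coding start, against 70.2% of the narrower promoter regions. The next narrower regions were alike in this. By mean width the share was 38.0% under 500 bp, 54.6% from 500 bp, 85.4% from 1000 bp and 90.7% from 1500 bp. It was 91.9% from 2000 bp and 92.4% from 2500 bp. Coding starts on both strands, as at a bidirectional promoter, were found in 30 wide promoter loci (9.06%) and in 5.77% of the narrower ones. At least 2 coding genes started in 36 wide promoter loci (10.9%), 4 of them tandem repeats described below, against 6.37% of the narrower ones. Both shares are over all promoter loci, coding or not. Of loci with a coding start, 30 of 312 wide and 1214 of 14770 narrower ones had such starts on both strands. At least 2 coding genes started in 36 of the 312 and in 1340 of the 14770. A longer region also reaches more starts, and the part of this was not tested. The wide promoter loci were spread over all chromosomes used, from 0.752% of the shared promoter regions on the X chromosome and 0.827% on chromosome 2 to 2.44% on chromosome 10 and 2.48% on chromosome 19.

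The signal value of a region, which the authors' caller gave as an enrichment, and its −log10 q ranked the wide loci differently. At wide promoter loci the median signal was 6.90 and 6.76, against 9.16 and 8.95 at narrower promoter regions. The median −log10 q was 180 and 156 at the wide promoter loci, against 109 and 92.1 at the narrower ones. Ranked among all promoter regions of their own list, the wide promoter loci stood at median percentiles of 39.7 and 37.5 by signal and of 65.2 and 64.5 by −log10 q. Over all 392 loci the medians, as means of the lists, were 37.1 by signal and 62.4 by −log10 q, and 28.8 and 51.0 when ranked only among regions at coding starts, so the high rank by −log10 q depends on the promoters it is set against. In 171 of 331 wide promoter loci (51.7%) the −log10 q was above and the signal below the median promoter region in both lists, which held for 6.21% of the narrower ones. The opposite, signal above and −log10 q below, was found at 1 wide promoter locus and at 6.31% of the narrower ones. Over the 392 loci the replicates ranked alike, with Spearman's rho of 0.958 for signal and 0.985 for −log10 q, over loci that share 2 libraries and were chosen in both.

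**Figure D1:**
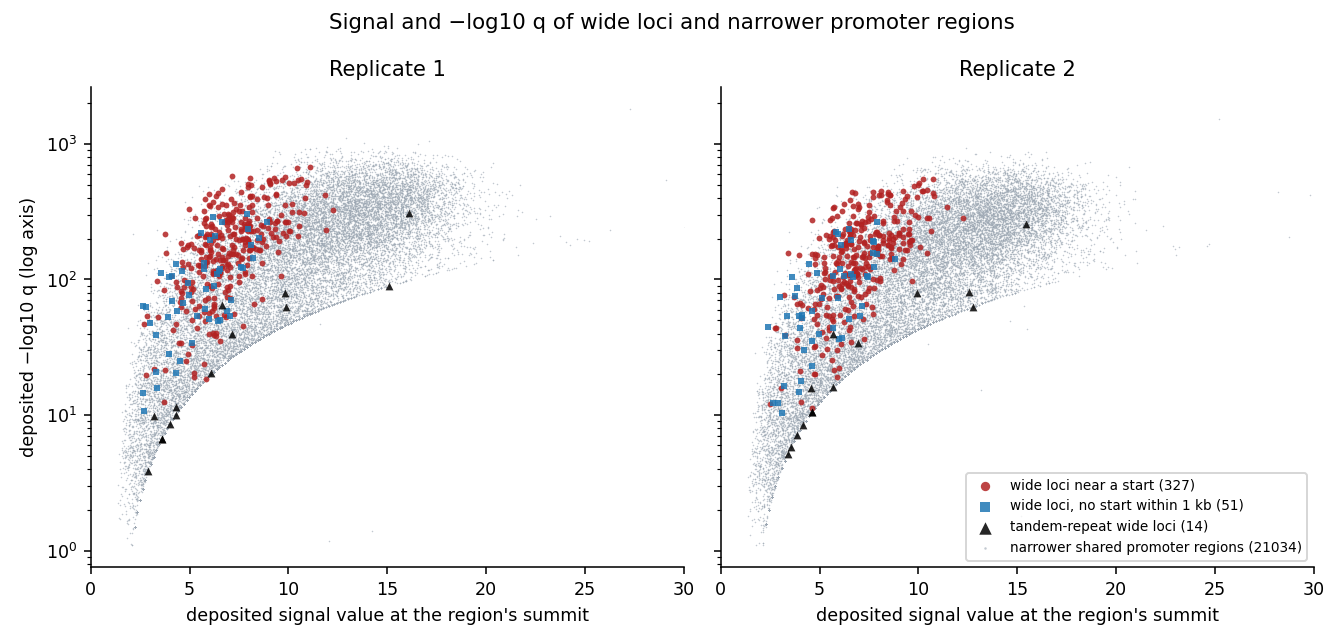
Deposited signal value (horizontal axis) against deposited −log10 q (vertical log axis) of each region in replicate 1 and replicate 2. Red points are 327 wide loci near a start, blue squares 51 wide loci with no start within 1 kb, black triangles 14 wide loci of tandem repeats, and grey dots 21034 narrower shared promoter regions (3 in replicate 1 and 1 in replicate 2 lie beyond a signal of 30). At equal −log10 q the red and blue points lie at lower signal than most grey dots, while several triangles lie along the lower edge.

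The deposited values allow the 2 quantities behind a signal to be separated. A signal equal to the summit pileup plus 1 over the local background plus 1, and a −log10 p from the Poisson tail of that pileup, gave a pileup that was whole within 0.02 in 99.96% of regions in the first list and 99.94% in the second. Read this way, wide promoter loci had a median summit pileup of 373 and 321 tags, against 193 and 164 at narrower promoter regions. Their median local background was 51.4 and 43.6 tags, against 20.3 and 17.6. The ratio of wide to narrower medians, from replicate means, was 1.96 for pileup and 2.51 for background. Against the 7433 narrower promoter regions whose centre has the composition of a CpG island (limits given below) the ratios were 1.00 and 1.62, and against the 10631 of at least 1000 and under 2000 bp they were 1.15 and 1.85. The excess in background was thus larger than that in pileup against both sets, and the pileup was level with promoters of island composition. A further set was the 11266 of 21034 narrower promoter regions whose −log10 q reached the lowest quartile of the wide loci in both lists. Against these the pileup was near level too, with ratios of 1.02 for pileup and 1.65 for background. They were picked on a value that itself depends on the pileup. Whether a wide region's own tags enter its background was not tested.

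Junb, a subunit of the AP-1 transcription factor, had the highest background of the wide loci. Its region (chr8:84975865-84979017, 3116 and 3153 bp) had a signal of 3.76 and 3.41, a −log10 q of 216 and 157 and a background of 224 and 202. Bhlhe40, a transcription factor needed for cytokine production in helper T cells, was built alike, with a signal of 4.96 and 4.63, a −log10 q of 330 and 274 and a background of 190 and 181. Ccnd2, which encodes cyclin D2, had a signal of 3.80 and 3.94 and a background of 159 and 139. All 3 lay below the median of the narrower promoter regions in signal and above it in −log10 q.

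The highest −log10 q of the wide loci was at the bidirectional promoter of Cct7, a subunit of the TRiC chaperonin, and Pradc1 (668 and 551, signal 11.1 and 10.7), followed by Zfp446 (657 and 550), Atxn7l3 (569 and 498), Eif5a (514 and 512) and Ing2 (537 and 488). The order after Zfp446 differed between the lists, with Klf13 next in replicate 1 (579) and Eif5a next in replicate 2. Atxn7l3 belongs to the deubiquitinase module of the SAGA coactivator, Ing2 is a chromatin reader and Eif5a is a translation factor. Of the loci that were no tandem repeat, Zmym2 (12.3 and 12.2), Cdyl (11.8 and 11.4) and Gng10 (11.9 and 10.4) had the highest signal. The lowest signal at a coding promoter was at Fes, a tyrosine kinase, with 2.83 and 2.73, and at Nkx3-2, a homeobox factor of the skeleton, with 3.21 and 3.06. The lowest −log10 q at a coding promoter off tandem repeats was at Prdm14, a germ cell factor (12.6 in both), and in replicate 2 alone at Adgrl2, an adhesion receptor (18.4 and 11.2). Nkx3-2 and Prdm14, though low, had 2505 and 2360 bp of CpG-island sequence around their summits.

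Signal was not highest where regions were widest. Over all shared promoter regions, median signal was 3.97 in those under 500 bp, 7.52 from 500 bp, 12.02 from 1000 bp, 10.5 from 1500 bp, 8.57 from 2000 bp, 7.03 from 2500 bp and 6.17 at 3000 bp or more. Background increased in every step, with medians of 7.25, 11.4, 23.3, 31.9, 37.5, 44.9 and 60.2. Median pileup was 286 from 1000 bp, and then 346, 343, 340 and 390.5 tags in the 4 wider classes. CpG-island sequence followed the width, at medians of 0, 300, 920, 1300, 1630, 2050 and 2230 bp. The Spearman correlation of width with island sequence was 0.590 over all 21538 shared promoter regions and 0.135 within the 331 wide promoter loci, which share their libraries.

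**Figure D2:**
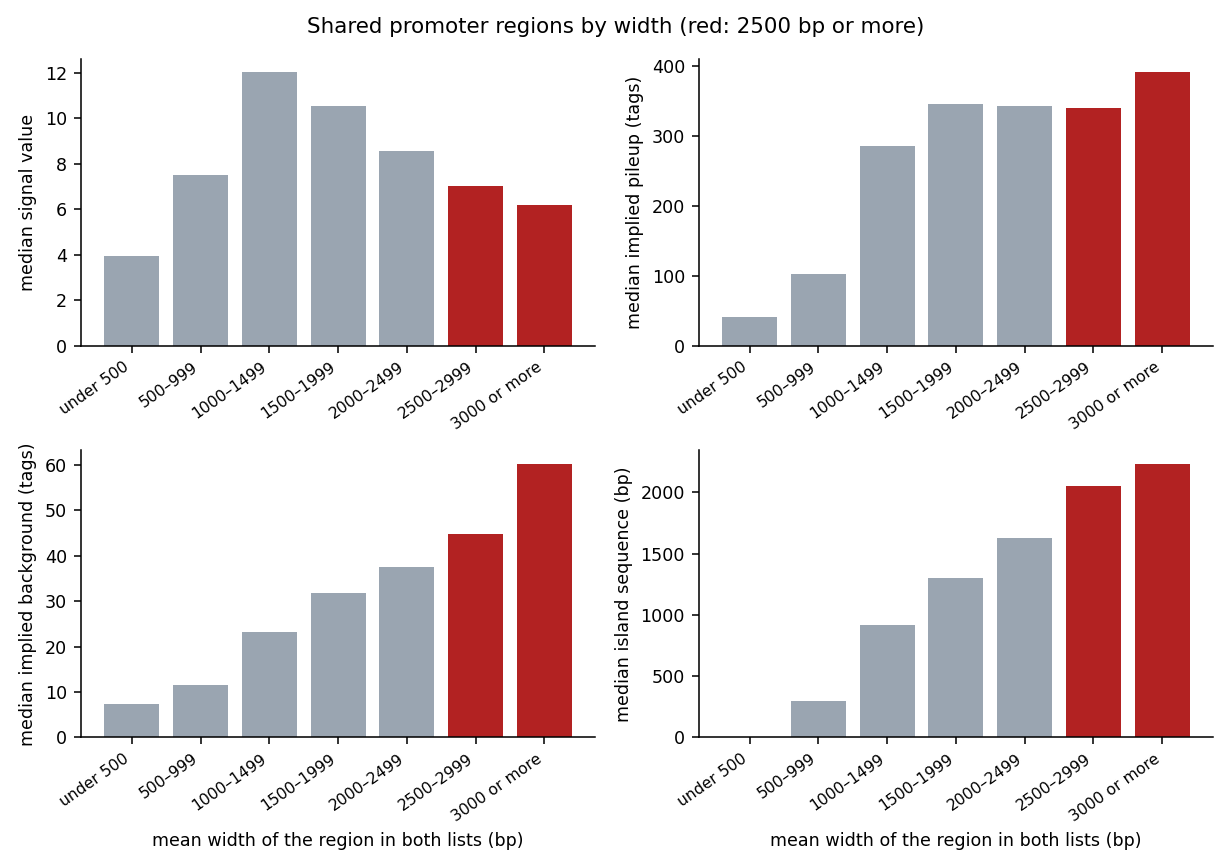
Medians over shared promoter regions by mean width in both lists, for the signal value, the implied summit pileup and background in tags, and the CpG-island sequence in the 4 kb around the summit. Red bars are regions of 2500 bp or more by mean width, including some that only 1 list called that wide. Signal was highest from 1000 bp to under 1500 bp (12.02), while background and island sequence were highest at 3000 bp or more (60.2 tags and 2230 bp).

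The wide promoter loci held long CpG islands. In the 4 kb around their summits the median length of island sequence was 2160 bp, against 745 bp at narrower promoter regions. It was counted as 200 bp windows with a GC content over 50% and a CpG observed-to-expected ratio over 0.6. In the central 1 kb the median GC content was 62.9%, against 55.05%, and the median CpG ratio was 0.773, against 0.549. The next narrower widths were alike at the centre, so this composition was not particular to the wide loci. By mean width, median GC was 62.2% from 1500 bp, 62.9% from 2000 bp and 62.4% from 2500 to under 3000 bp. The median CpG ratio was 0.778, 0.780 and 0.757 in the same order. A GC content over 55% with a CpG ratio over 0.65 was found at 220 wide promoter loci (66.5%) and at 35.3% of narrower promoter regions. The 7433 narrower regions that pass the same limits were as GC-rich at the centre as the wide loci, with wide minus narrower differing by -0.45 percentage points in GC and by -0.036 in CpG ratio. Against those, the wide loci still had 915 bp more island sequence by median. That comparison was added after the data were seen, and its regions were selected on the composition compared.

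**Figure D3:**
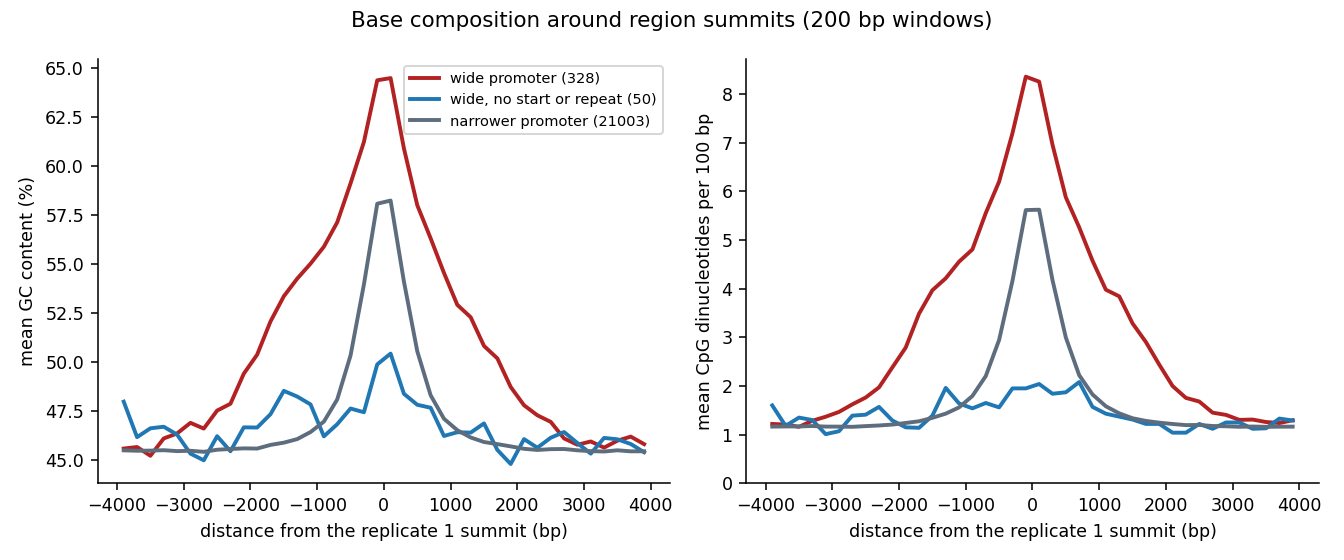
Mean GC content (left) and mean CpG dinucleotides per 100 bp (right) in 200 bp windows up to 4 kb from the replicate 1 summit, for 328 wide promoter loci (red), 50 wide loci with no start and no tandem repeat (blue) and 21003 narrower promoter regions (grey), all with no gap in the window. At 1.5 kb before and after the summit the wide promoter loci had 3.97 and 3.29 CpGs per 100 bp, against 1.35 and 1.34 in narrower promoter regions.

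Of the wide promoter loci, 21 (6.34%) had no island window within the 4 kb, against 24.5% of narrower promoter regions. Among them were Cd74, Gbp2, Tnfrsf13b and Zbtb7b, each with an island length of 0. Cd74 encodes the invariant chain of MHC class II and is a marker of antigen-presenting cells such as B cells. Its locus had a signal of 10.5 and 10.1, and of 11 genes in a B cell list that holds it, 8 had an open promoter, as did 14134 of all 21646 coding genes. Gbp2 is an interferon-induced GTPase, with a signal of 6.19 and 6.89 at its locus. Zbtb7b encodes ThPOK, the factor that commits thymocytes to the CD4 lineage, and had a signal of 3.72 and 3.71.

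The open stretch ran mainly into the gene. In 282 wide loci with coding starts on 1 strand, the region reached a median of 1054.5 bp upstream and 1839.5 bp downstream of the start nearest the summit, against 499 and 699.5 bp in 13556 narrower promoter regions. The share that reached farther downstream than upstream was 69.5% in the wide loci and 66.3% in the narrower ones, so the direction was shared. The median difference was 785.75 bp against 198 bp, but a difference in bp grows with the width that chose the loci. As a share of the region's reach on both sides, the downstream part had a median of 63.2% in the wide loci and 58.5% in the narrower ones. At Foxo1, a factor of naive and memory T cells, the region ended 3481 bp into the gene and 690.5 bp before it. Junb was covered 2847.5 bp downstream and 286 bp upstream. The reverse was seen at Egr2 (331 bp downstream and 2554 bp upstream), Egr3 (403 and 2728.5 bp), Stat5a (543 and 2434 bp) and Bhlhe40 (499 and 2514.5 bp).

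**Figure D4:**
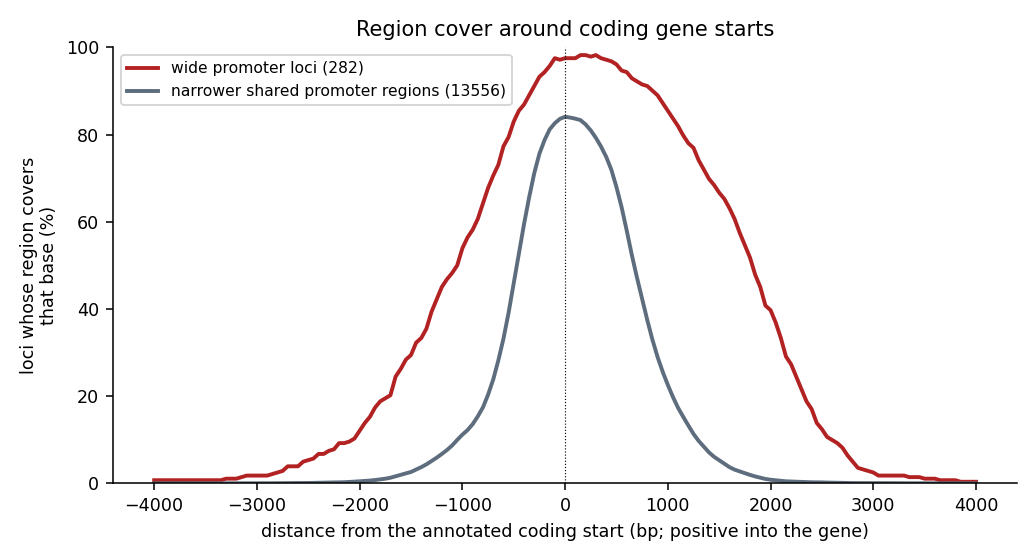
Share of loci (vertical axis) whose region covers each base up to 4 kb before and after the coding start nearest the summit, for 282 wide promoter loci (red) and 13556 narrower shared promoter regions (grey), with distances positive into the gene. At 1 kb into the gene 85.5% of wide and 22.6% of narrower regions covered the base, and at 1 kb before the start 53.9% and 11.2%.

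In wide promoter loci the summits lay a median of 170.5 bp from the nearest start, against 123 bp in narrower promoter regions. This difference of 47.5 bp turned to -145 bp with a promoter window of 2500 bp and to -4.5 bp with a width minimum of 2000 bp. Its direction thus depended on these choices. The summits of the replicates lay a median of 20 bp apart, against 9 bp, and within 100 bp of each other in 75.2% of wide and 86.5% of narrower promoter loci. A longer region leaves more room for such a gap, and the part of this was not tested. The number of other shared regions within 20 kb had a median of 3 in both sets. Genes with a wide locus had a median length of 20.5 kb, against 22.7 kb for genes with only narrower promoter regions, and a mean of 3.78 annotated coding transcripts, against 3.04.

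The letters of 16 motifs were looked for on either strand within 100 bp of each summit, and the core of the cAMP response element lies within the full element. The GC box of Sp and Klf factors (GGGCGG) was found at 57.4% and 58.0% of wide promoter loci, against 39.0% and 38.8% of narrower promoter regions. The core of Ets factors (CCGGAAG) was found at 4.23% and 6.04% of the wide loci, against 9.52% and 9.42%. Runx letters (TGTGGT) were present at 9.06% and 8.46%, against 14.3% and 14.4%. AP-1 letters (TGANTCA) occurred at 4.23% and 5.14%, against 12.3% in both lists, and the interferon response core (GAAANNGA) at 7.25% and 7.55%, against 13.1% and 13.4%. Tcf1 and Lef1 letters (CTTTGA) were at 5.44% and 6.04%, against 9.35% and 9.48%, and the CCAAT box of NF-Y (CCAAT) at 21.8% and 22.4%, against 25.5% and 25.1%. TATA letters (TATAAA), those of NF-κB, Yy1 (AAGATGGC) and Stat (TTCNNNGAA) were also at a lower share of the wide loci in both lists, by under 2 percentage points each. Besides the GC box, 4 motifs were at a higher share of the wide loci in both lists, though Nrf1 was all but level in replicate 2. The core of the cAMP response element (TGACG) was at 22.4% and 20.8%, against 19.4% and 19.2%, and the Myc E box (CACGTG) at 6.95% in both, against 5.69% and 5.60%. T-box letters (AGGTGTGA) were at 2.11% and 1.51%, which is 7 and 5 loci, against 0.889% and 0.832%. Nrf1 letters (GCGCATGC) were at 3.02% and 2.42%, which is 10 and 8 loci, against 2.45% and 2.41%. The full cAMP response element (TGACGTCA), at 1.81% and 1.21%, against 1.72% and 1.69%, had no common order. The 2 sets differ in base composition, with a median GC content of 62.9% against 55.05% and a CpG ratio of 0.773 against 0.549 in the central 1 kb. Shares of GC-rich and AT-rich letters depend on this. No narrower set of like composition was searched, so the part of composition in these differences was not tested. A match describes the letters of these windows and shows no binding.

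The 331 wide promoter loci held starts of 353 coding genes, which is 2.5% of the 14134 coding genes with an open promoter. Of 50 gene families looked at, 31 had at least 1 gene with a wide locus and 19 had none, and families of transcription factors were among both. Of 25 Klf and Sp factor genes with an open promoter, 6 had one (24.0%), namely Klf4, Klf13, Klf3, Klf10, Klf16 and Sp3, zinc finger factors that bind GC boxes. The Klf4 locus (chr4:55530267-55533707) was 3390 and 3438 bp wide with a signal of 10.2 and 10.5, and the Klf13 locus, 2889 and 3919 bp wide, had a −log10 q of 579 and 443. Klf3 differed from the other 5 in its centre, with a GC content of 46.9% and 310 bp of island sequence, while the others had between 2510 and 2950 bp.

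Forkhead factors had 6 of 33 (18.2%), Foxo1, Foxo3, Foxc1, Foxp1, Foxl2 and Foxn3. Foxo1, Foxo3 and Foxp1 act in the quiescence and survival of naive T cells, and Foxc1 and Foxl2 are known from mesenchyme and ovary. The Foxo1 locus (chr3:52267635-52271817, 4162 and 4183 bp) had a GC content of 38.9% in its central 1 kb. Foxc1 and Foxl2 had 2900 bp of island sequence each and a −log10 q of 70.8 and 53.8 at Foxc1 and 49.9 and 40.7 at Foxl2, below the median of narrower promoter regions in both lists. Foxo3 had 306 and 260, above it.

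Among the enzymes that write and erase lysine methylation, 7 of 38 genes had a wide locus (18.4%), Kmt2e, Kmt2c, Kmt2a, Kdm7a, Kdm4d, Nsd1 and Setd7. Kmt2a and Kmt2c are histone H3 lysine 4 methyltransferases, and Kmt2a binds unmethylated CpG islands through a CXXC domain. Of the chromodomain, SWI/SNF and Arid genes, 5 of 33 had one (15.2%), Arid2, Smarca2, Arid5a, Arid3a and Chd7. Arid2 was the widest of the 12, at 3778 and 3369 bp with 3660 bp of island sequence. Their signals in replicate 1 ran from 6.07 at Arid2 to 9.36 at Smarca2. Polycomb genes had 1 of 38 (2.63%), Pcgf5.

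Replication-dependent histone genes had 9 of 59 (15.3%), but the 9 sit in only 3 loci, where several small intronless histone genes start within one open stretch. These were Hist2h2ab, Hist2h2ac and Hist2h2be with Bola1 (chr3:96219252-96221928), Hist1h1a, Hist1h3a and Hist1h4a (chr13:23760045-23762834), and Hist1h2ai, Hist1h2bl and Hist1h3h (chr13:21715407-21717952). Signals at the 3 were 7.27 and 7.52, 5.80 and 5.33, and 8.01 and 7.75. Genes of 1 locus share 1 region and are not separate observations.

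Regulators of signalling were among the members. Dual specificity phosphatases, which switch off MAP kinases, had 3 of 21 (14.3%), Dusp6, Dusp14 and Dusp4. Egr and Nr4a factors had 2 of 7, Egr3 and Egr2, and AP-1 and Batf factors 2 of 23 (8.70%), Jun and Junb. Egr2 had a signal of 10.9 and 10.8 and a −log10 q of 499 and 412, while Jun (chr4:95050101-95053527, 3425 and 3427 bp) had 5.96 and 5.60 with 355 and 284. Families with 1 member gave Gadd45b of 3 Gadd45 genes, Socs2 of 8 cytokine signalling inhibitors, Spry2 of 6 Sprouty and Spred genes, Nfatc1 of 5 NFAT, Runx2 of 4 Runx and core-binding and Stat5a of 7 Stat genes. Irf factors had 2 of 9, Irf5 and Irf2. With so few genes a family, 1 locus more or less moves these shares greatly.

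Between these shares and that of all genes stood Zbtb zinc finger genes, with 3 of 41 (7.32%), namely Zbtb2, Zbtb7a and Zbtb7b, splicing factors of the SR and hnRNP type, with 2 of 31 (6.45%), and Ets factors, with Erf of 21 (4.76%). Small families with 1 gene were the cyclins, with Ccnd2 of 16, guanylate binding and immunity-related GTPases, with Gbp2 of 11, chemokine receptors, with Cxcr4 of 13, TNF receptors, with Tnfrsf13b of 18, and interleukin receptors, with Il1r2 of 30. Potassium channel genes had 2 of 51 (3.92%).

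Other families were near or below the share of all genes. Zinc finger genes named Zfp had 8 of 358 (2.23%), of which Zfp36l2 is an RNA-binding CCCH protein and not a C2H2 factor. Cytosolic ribosomal protein genes had 2 of 80 (2.5%), Rpl36 and Rps14, mitochondrial ones 1 of 78, solute carriers 4 of 265 (1.51%) and translation initiation factors 1 of 51. No wide locus was found at 68 heat shock genes, 48 ubiquitin-specific proteases, 47 proteasome subunits, 31 Hox genes, 13 Sox, 8 Smad, 11 NF-κB, 5 Ikaros and 7 E protein and Id genes, 13 TNF or 17 interleukin genes with an open promoter. The widest of the NF-κB family without one was Nfkbid, at a mean width of 2349 bp. Counted over all 50 families looked at, 79 of 1834 genes (4.31%) had a wide locus.

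**Figure D5:**
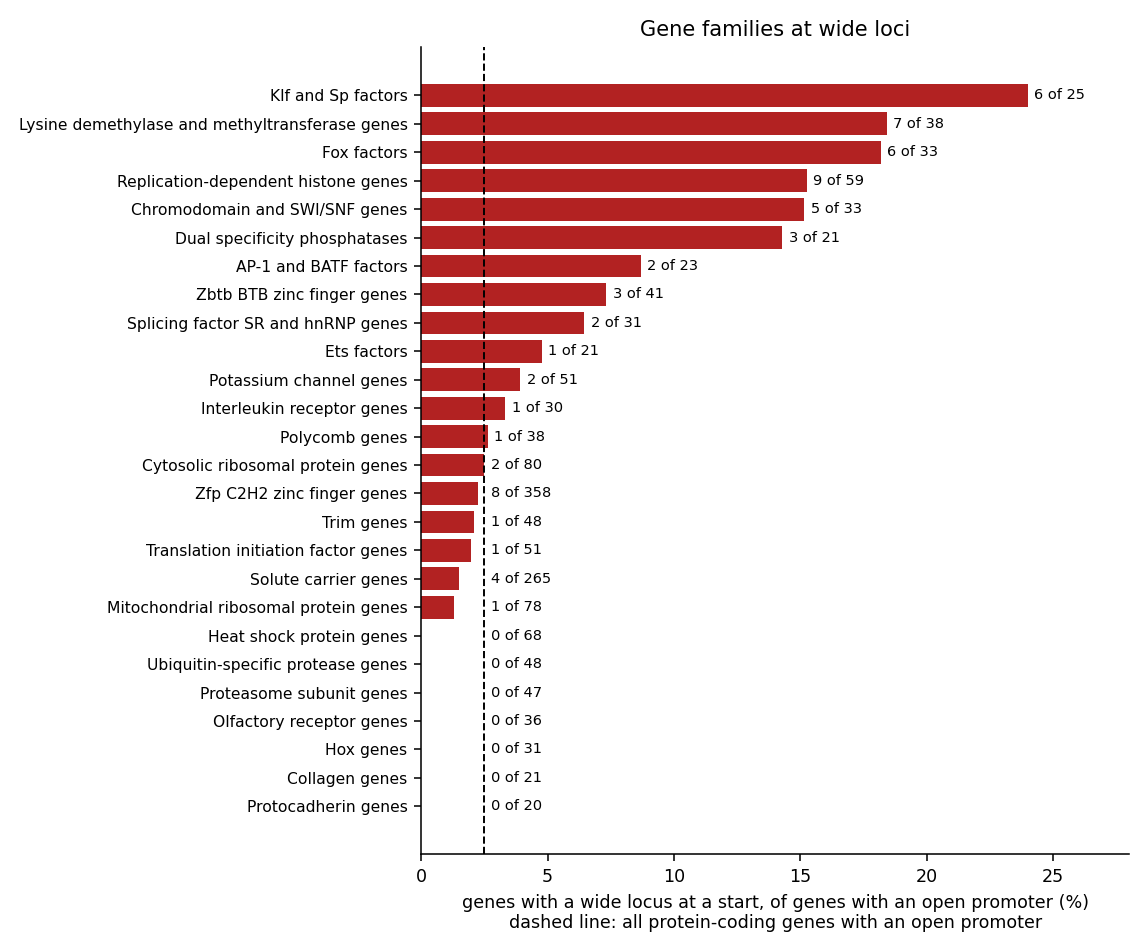
Share of coding genes with an open promoter that had a wide locus within 1 kb of a start, for families with at least 20 such genes, with the counts beside the bars. The dashed line is the share over all 14134 coding genes with an open promoter (2.5%). Klf and Sp factors stood at 24.0%, and 7 families, from heat shock genes to protocadherins, stood at 0.

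Lists of T cell genes were set against the same 2.5% of all genes with an open promoter, a share at which lists this small hold few members or none. Of 33 genes of the T cell receptor complex and its signalling, all with an open promoter, none had a wide locus, and the widest was Cd3d at a mean width of 2541.5 bp. Of 29 genes of the T-helper 1 programme with an open promoter, 1 had a wide locus, Bhlhe40. None of the 14 with an open promoter in the list of other helper fates had one. Of 24 activation genes 5 had one, Junb, Egr3, Nfatc1, Bhlhe40 and Egr2, and of 15 genes of naive and memory T cells 3, Foxo1, Satb1 and Foxp1. Satb1, an organiser of chromatin in T cells, had a signal of 5.45 and 5.59 at its start. None of 18 glycolysis and 22 cell cycle genes had one, and 2 of 22 housekeeping genes did, Pfn1 and Ywhaz. The widest without one had a mean width of 2631 bp at Gapdh in the glycolysis list and 3075.5 bp at Rrm2 in the cell cycle list. Like Cd3d, these passed 2500 bp by mean width but did not meet the rule in both lists. As a check of the label, 7 of 8 T cell markers (all but Trac) and all 5 T-helper 1 markers had open promoters, as did 14134 of all 21646 coding genes. Of the contrast markers, 2 of 5 for B cells, 1 of 5 for myeloid cells and 1 of 2 for CD8 T cells (not Cd8a) had one. Only protein-coding transcripts were counted, so Trac, a receptor constant segment of another annotation class, could not count as open. No marker gene that could be counted had a wide locus. In the longer lists the contrast was smaller for B cells, with open promoters at 33 of 33 T cell receptor genes and 29 of 30 of the T-helper 1 programme, against 8 of 11 B cell, 5 of 15 myeloid and 9 of 15 neuronal genes.

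The widest loci off tandem repeats were at Apobec3, a cytidine deaminase that restricts retroviruses (chr15:79891551-79896204, 4654 and 4644 bp), and over the noncoding gene Gm26377 and part of Mto1 (4633 and 4349 bp), with a summit 3957.5 bp from the nearest start. They were followed by Zmiz1, a coactivator of Notch1 in T cells (4492 and 4399 bp), an intron of Bcor, a BCL6 corepressor (4384 and 4364 bp), Ssbp4 (4228 and 4206 bp), Foxo1, Tle3, a Groucho corepressor (4172 and 4150 bp), Brd2 with H2-DMa (4103 and 4094 bp), Pdgfb (4074 and 4060 bp) and Patz1 (4005 and 4070 bp). They did not share one composition. Zmiz1 had 3850 bp of island sequence, Tle3 3590 bp and Patz1 3150 bp, whereas Apobec3 had 510 bp and the Gm26377 locus 0. At the Gm26377 locus the signal was 2.72 and 2.78 and the −log10 q 47.0 and 44.3, over a background of 108 and 95.6. Coding transcripts of Eef1a1 and Mto1 end within 1 kb of this locus, so it lies at gene ends as well as near a noncoding start.

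Only noncoding starts were found at 19 wide promoter loci. One was the host gene of the miR-17 cluster, Mir17hg (2801 bp in both lists), a microRNA cluster known for its role in lymphocyte growth, with a signal of 8.17 and 9.24. Others were Rncr4 next to Nrf1 (8.91 and 9.07) and A630014C17Rik next to Tcf7 (2.79 and 2.48), which had the lowest mean signal of a promoter locus and whose sequence is printed above, though in replicate 1 the Gm26377 locus was lower. Mir17hg and Rncr4 were chosen after their values were seen.

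Tandem repeats made up the very widest loci. In 14 loci at least 60% of bases equalled the base 1 repeat unit further on, from 62.7% to 77.4%, whereas in the other 378 the best such match was between 27.1% and 42.8%. They included the 8 widest loci of all, from 5111 to 15426 bp by mean width, and 11 of the 14 lay within 1 Mb of the first sequenced base of their chromosome, where mouse chromosomes have their centromeres. At 4 loci between chr9:3000002 and chr9:3038213 the repeat unit was 234 bp, the unit length of the mouse major satellite of pericentromeric heterochromatin, and 94.4% to 96.9% of their bases were repeat-masked. Predicted genes such as Gm10719 and Gm10717 are annotated in these 4, so they count as promoter loci and supply 9 of the 353 coding genes. At 8 loci on chromosomes 3, 4, 7, 16 and 17 the unit was 21 bp, and at 2 loci, in introns of Tmem267 and Mid1, it was 31 bp. Signal in the tandem repeats ran from 2.91 to 16.1 in replicate 1, and −log10 q from 3.87 to 306, with the highest of both at the second widest locus. Their background was low, from 6.22 to 22.4 in replicate 1 and from 5.51 to 20.01 in replicate 2, where the lowest background of any region was 6.22 and 5.51. The summits of the replicates lay a median of 710 bp apart in these loci. How reads that match many copies were placed is not given in the sources used here, and its part in these regions was not tested.

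No start lay within 1 kb of 61 wide loci, 10 of them tandem repeats. In the other 51 the median signal was 5.71 and 5.66, against 6.37 and 6.15 in 62720 narrower shared regions without a start, and the median −log10 q was 85.4 and 73.1, against 33.8 and 28.8. Background was 42.0 and 38.1, against 9.10 and 8.05. So the order seen at promoters, a higher −log10 q with a lower signal, held for medians here too. Island sequence was absent from 32 of the 51 (62.7%), against 71.7% of the narrower regions. AP-1 letters lay at 25.5% and 21.6% of their summits, against 30.8% and 30.6%, and Runx letters at 19.6% and 25.5%, against 25.7% and 25.6%.

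Several of the 51 lay at or just past the end of a gene. A coding transcript ended within 1 kb of 17 (33.3%), against 6.14% of narrower regions without a start, though a wide region reaches more ends. By summit alone, 5 and 6 of 51 lay within 1 kb of such an end (9.80% and 11.8%), against 4.61% and 4.59%. The locus with the lowest signal of all lay over the last exon of Il2ra, which encodes the alpha chain of the interleukin-2 receptor (chr2:11690019-11693556, 2.65 and 2.41), with a −log10 q of 64.0 and 44.7 and a background of 158 and 145. A region past Ctla4, an inhibitory receptor of activated T cells, had 2.80 and 3.02 with a background of 131 and 129. The Cbx7 end (2.65 and 2.64) and the Eif5 end (2.67 and 2.91) were as low in signal and had a background of 35.2 and 29.7 at Cbx7 and 24.8 and 22.4 at Eif5. Past the end of Egln3, a prolyl hydroxylase of the hypoxia response, the region was 3615 and 3773 bp wide with a signal of 3.29 and 3.27.

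Other wide loci without a start lay inside genes of T cell and chromatin biology. Within Kdm6b, a histone H3 lysine 27 demethylase, a region of 3586 and 3524 bp, of which 3.29% was exon, had a −log10 q of 288 and 222 and 2120 bp of island sequence. Introns of Hivep2 (3407 and 3286 bp, signal 8.13 and 7.91) and Ago2 (3127 and 3439 bp, 2.99 and 3.33) and the Bcor intron with 2815 bp of island sequence were further members. In 8 of the 51, RefSeq places a gene start within 1 kb, so GENCODE M21 alone decides that they count as without one. The Kdm6b region is one of these, at a RefSeq start of Kdm6b itself, and so are those at the ends of Il2ra and Egln3, at starts of predicted genes.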

How the data were processed

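The deposited files used here are 1 list of open regions per replicate, which the authors called separately. Column 7 is the signal value of the region, columns 8 and 9 are −log10 p and −log10 q, column 5 is a display score, and column 10 is the summit offset, all as deposited. Per the labels the files use mm10, and no aligner or caller is named in the sources used here. A −log10 value and a signal belong to 1 region of 1 list and were used only to describe and rank regions within that list.

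Regions that overlapped by at least 1 bp were joined, and a locus took the region of highest −log10 q of each list. A promoter region lay within 1 kb of a GENCODE M21 transcript start. Sequence came from GRCm38. Pileup and background were solved from the signal and −log10 p. Overlap, pileup and island steps were checked on simulated data. Python 3.11.15, numpy 2.4.6, pandas 2.3.3 and scipy 1.17.1 were used. The 50 families, 11 gene lists and 16 motifs, like the loci, were chosen with earlier results of these data known, and no test was made, since 2 libraries of 1 group give no comparison of conditions. Genes were named by rule (the widest loci, extremes of signal and −log10 q, most starts, loci at the width minimum, and the widest of each family). Wide regions on the Y chromosome, mitochondrial and unplaced sequence (26 in replicate 1 and 24 in replicate 2) were left out. Alternatives varied the width minimum, the overlap, the replicates, the promoter window, the start annotation, a minimum −log10 q, the chromosomes, the narrower set and the tandem repeats.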

Additional observations from a re-analysis of the deposited data

Results flagged for a closer look

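Regions on unplaced sequence were outside the rule and were often wide. In replicate 1, 20 of 87 such regions (23.0%) reached 2500 bp, and in replicate 2, 21 of 83 (25.3%), against 0.51% and 0.556% on chromosomes 1 to 19 and X. The widest measured 8515 bp in replicate 1 and 9576 bp in replicate 2. They were noted as a signal in data that the comparisons do not use. How reads were placed on unplaced sequence is not given in the sources used here, and its part was not tested.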

How the results depend on the processing

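No paired analysis was possible because the 2 replicates form 1 group. The alternatives without tandem repeats and against narrower regions of CpG-island composition, and all those for pileup, background and island length, were added after seeing the data. A value moved when it changed by more than the SD between the 2 single lists, so a move can be small, and the cause of a move was not tested. The numbers of loci and of coding genes were instead judged by their ratio to the main value, a looser limit. By it the 504 and 508 loci and the 428 and 445 coding genes of a single list, against 392 and 353, did not count as moved. With a width minimum of 2000 and 3000 bp there were 1431 and 101 loci and 1236 and 91 coding genes, the promoter share was 82.2% and 80.2%, the percentile by signal 44.9 and 33.0, the GC difference 8.14 and 6.74 points, the CpG ratio difference 0.25 and 0.19, the pileup ratio 2.06 and 2.20, the background ratio 2.30 and 3.34, and the island difference 1030 and 1475 bp. At 2000 bp the percentile by −log10 q was 64.5, the downstream excess 541.75 bp and the bidirectional share 11.1%.

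Taking 1 list alone gave promoter shares of 82.3% to 82.9%, percentiles of 37.0 to 37.8 by signal and 59.7 to 61.0 by −log10 q, CpG differences of 0.23 to 0.24, a downstream excess of 780 to 807 bp, bidirectional shares of 7.95% to 9.50%, start number differences of -0.043 to -0.017, summit distance differences of 32.0 to 33.0 bp, neighbour differences of 0 to 1, pileup ratios of 2.05 to 2.16 and island differences of 1330 to 1340 bp.

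With a promoter window of 500 and 2500 bp the percentile by signal was 32.4 and 45.0, that by −log10 q 57.5 and 70.8, the GC difference 6.64 and 10.4 points, the CpG difference 0.16 and 0.42, the pileup ratio 1.69 and 2.62, the background ratio 2.34 and 2.89 and the island difference 1335 and 1655 bp, and the promoter share at 2500 bp was 87.0%. With coding starts only and with a −log10 q of at least 5, the percentile by signal was 28.8 and 33.1, that by −log10 q 51.0 and 60.02, the GC difference 5.14 and 7.64 points, the CpG difference 0.10 and 0.21, the pileup ratio 1.41 and 1.81, the background ratio 2.03 and 2.39 and the island difference 1210 and 1397.5 bp. The promoter share was 79.6% with coding starts, 85.4% without the X chromosome and 86.5% without tandem repeats.

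The narrower sets were those reaching the −log10 q limit given above, of at least 1000 and under 2000 bp and of island composition. Against them, in this order, the GC difference was 4.70, 3.55 and -0.45 points and the CpG difference 0.058, 0.051 and -0.036. The pileup ratio was 1.02, 1.15 and 1.00, the background ratio 1.65, 1.85 and 1.62 and the island difference 1195, 1140 and 915 bp. The neighbour difference was 1 instead of 0 with a width minimum of 3000 bp, a window of 2500 bp or no tandem repeats. The difference in transcripts starting near the summit, -0.056, was 0.40 and -0.088 with minimums of 2000 and 3000 bp, -0.39 and 0.51 with windows of 500 and 2500 bp, -0.34 with coding starts, -0.12 with the −log10 q minimum, -0.029 without X, and -1.07, -0.95 and -1.42 against the 3 narrower sets. The summit distance difference, 47.5 bp, was in the same order -4.5, 27.5, 77.25, -145, 115.75, 55.5, 45.0, 107, 101 and 109.5 bp, and 46.5 bp without tandem repeats. So neither of the last 2 differences has a direction that holds over these choices, while the background ratio stayed over 1.6 in all 14. The signal percentile stayed under 50 too, but the 3 narrower sets cannot move it, since it ranks wide loci among all promoter regions. Depth is unknown, which limits every statement on weak regions.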

Other observations

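A pair of wide promoter loci, chosen after their values were seen, lay at a tumour suppressor and a DNA methylation gene. Trp53, which encodes p53 and shares its promoter with Wrap53, had regions of 3036 and 3034 bp with a signal of 6.46 and 6.35. Dnmt3a, a DNA methyltransferase, had the highest GC content of the wide promoter loci in its central 1 kb (81.2%) and a signal of 9.99 and 9.52.

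Loci that only 1 list called at least 2500 bp wide numbered 227. Of these, 173 (76.2%) came within 1 kb of a start, a share between those of the wide loci (84.4%) and of the narrower shared regions (25.1%).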
